A study of Mus musculus with 36 samples.

Results

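The subunits of the oxidative phosphorylation machinery were followed in the kidneys of mice on 5 diets. The members were the probe sets (groups of short oligonucleotides on the array that together report 1 transcript) whose single gene symbol starts with Ndufa, Ndufb, Ndufc, Ndufs or Ndufv and a digit, is one of Sdha to Sdhd, or starts with Uqcr, Cox4 to Cox8 or Atp5. Assembly factors were left out. The rule reads symbols and no signals, although it was written with earlier results of these data known. The rule took 135 probe sets of 79 genes, out of 45141 probe sets in all and 17097 genes that had a probe set of a single symbol: 62 probe sets of 34 genes by symbol in complex I, 7 of 4 genes in complex II, 13 of 7 genes in complex III, 29 of 17 genes in complex IV and 24 of 17 genes in complex V. One symbol, Ndufs5-ps, is that of a pseudogene. Of the 79 genes, 38 had several probe sets. No gene had 1 probe set called higher and another called lower in the same diet comparison. The subunits encoded by mitochondrial DNA were not analysed here.

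Total RNA of the kidneys of male C57BL/6 mice, 10 to 12 weeks old at purchase, was hybridized to HT MG-430 PM arrays of Affymetrix, with a separate array for each of the 36 mice. Mice fasted for 3 days (Fasting, n = 4) were compared with mice given the standard SDS chow without limit (SDS-fasting, n = 5), in a cohort of its own. In the other cohort, mice that received 30% dietary restriction for 2 weeks (30%DR, n = 5) were compared with mice on unlimited SDS chow (SDS-30%DR, n = 3). Mice given a diet without protein (Protein-free, n = 5), without carbohydrate (CHO-free, n = 5) or without fat (Fat-free, n = 4) for 3 days, each eaten without limit, were compared with mice on a purified control diet, labelled type I (Control, n = 5). The SDS-fasting and SDS-30%DR mice were told apart by the prefix of the animal number, and groups of different cohorts were never tested against each other. Signals are log2 RMA values, on which a difference of 0.585 is a fold change of 1.5. A difference was called where the false discovery rate of limma, over all 45141 probe sets, was under 5%. A called probe set with a fold change of at least 1.5 is a DEPS (differentially expressed probe set). The mean signal of 8 proximal tubule markers lay between 10.9 and 11.3 in all 36 arrays, so that the main kidney cell type was found in every sample. In bulk tissue fewer cells of a type and less RNA per cell cannot be told apart. The Gapdh difference, which is the signal of the 3' control probe set of Gapdh minus that of the 5' one and grows as RNA breaks down, was 0.823 ± 0.140 in Control, 1.34 ± 0.592 in protein-free, 1.85 ± 0.618 in CHO-free and 1.27 ± 0.369 in fat-free mice (mean ± SD, log2). It was higher in CHO-free than in Control mice in a 2-sided exact permutation test (p = 0.00794, 0.0397 after Benjamini-Hochberg adjustment over the 5 comparisons). In the other 4 comparisons the adjusted p was 0.119 or more.

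Oxidative phosphorylation is the final stage of respiration in mitochondria. Complex I takes electrons from NADH and complex II from succinate. Both pass them through ubiquinone to complex III, from where cytochrome c carries them to complex IV, the oxidase that reduces oxygen. The protons pumped by complexes I, III and IV flow back through complex V, the ATP synthase. Each complex has a few core subunits that carry out the chemistry and many small accessory subunits, and complex IV has isoforms of some subunits that differ between tissues. The proximal tubule, the main cell type of the kidney cortex by mass, is rich in mitochondria because the reabsorption of sodium, glucose and amino acids is driven by ATP.

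Most subunits of protein-free mice had lower signals than those of Control mice, while the median shift of the members was smaller on the other diets. In protein-free mice 10 of the 135 probe sets fell (7.41%) and 2 rose, where 0.682% of all probe sets fell and 1.01% rose. In fasted mice 12 fell and 13 rose, near the shares of all probe sets, of which 9.54% fell and 10.1% rose. In CHO-free mice 1 fell and 9 rose, where 4.85% of all probe sets fell and 5.51% rose. After 30%DR 1 fell and 0 rose, where 0.724% of all fell and 0.766% rose. After the fat-free diet limma called 0 of the 135 and 0.00% of all probe sets. At an unadjusted p under 0.05 it had 3 members there, and every alternative fit of this comparison also called 0. The median log2 fold change of the 135 was -0.14 in protein-free mice, with 115 of 135 below 0, against a median of 0.01 over all probe sets. It was -0.03 after fasting, -0.06 after 30%DR, 0.01 on the CHO-free diet and -0.01 on the fat-free diet.

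**Figure D1:**
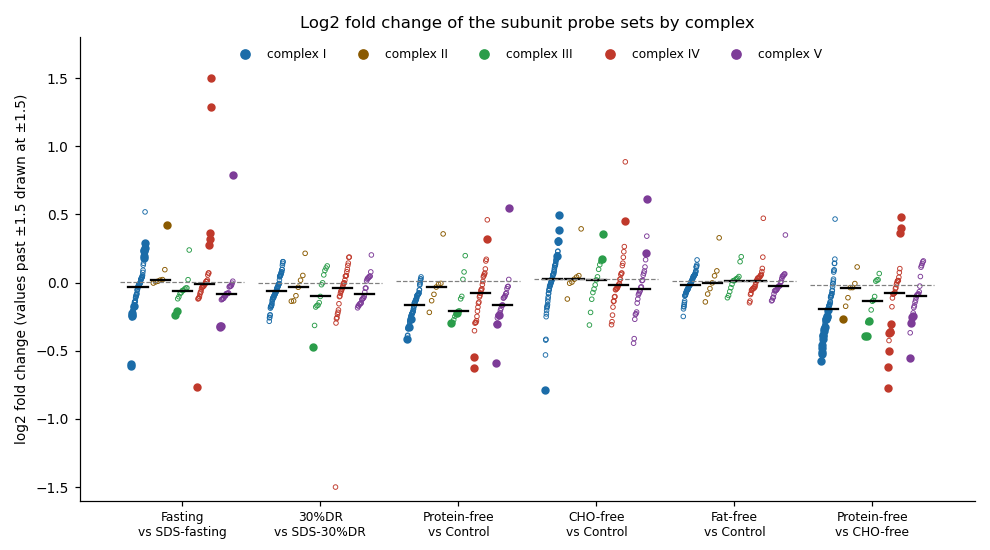
Log2 fold change of each of the 135 probe sets (vertical axis) in the 5 diet comparisons and in protein-free against CHO-free mice, coloured by complex. Filled points passed a false discovery rate of 5%, black bars are medians of a complex and dashed lines the median of all 45141 probe sets. In protein-free mice the medians of complexes I, III and V lay between -0.21 and -0.16.

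Mice on the protein-free diet had lower signals for parts of complexes I, III, IV and V. The median log2 fold change was -0.16 in complex I (58 of 62 probe sets below 0, 3 called lower), -0.21 in complex III (2 called lower), -0.17 in complex V (22 of 24 below 0, 3 lower and 1 higher), -0.08 in complex IV (2 lower and 1 higher) and -0.03 in complex II (0 called). Only 2 of the 135 were DEPS, Cox6a2 and Atp5g1, where 0.738% of all probe sets were.

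Uqcrq, a small subunit of complex III, had log2 signals of 11.37, 11.38, 11.40, 11.43 and 11.47 in the protein-free mice and of 11.65, 11.69, 11.69, 11.74 and 11.75 in the Control mice. No protein-free mouse reached the lowest Control mouse. The log2 fold change was -0.29 (SE 0.06, adjusted p = 0.00578, limma). Of the 4 probe sets of Uqcrq only this 1 was called, and their estimates ran from -0.29 to 0.20. Uqcr11, another accessory subunit of complex III, had 11.50, 11.52, 11.54, 11.62 and 11.66 against 11.69, 11.78, 11.80, 11.83 and 11.83. The groups did not overlap here either, with a difference of -0.22 on the log2 scale (SE 0.06, adjusted p = 0.0356, limma). Atp5g1 encodes the ring subunit c of the ATP synthase, through which protons pass. By its bright probe set, its signals were 10.22, 10.47, 10.61, 10.77 and 10.85 in the protein-free and 11.10, 11.13, 11.16, 11.17 and 11.31 in the Control mice. The difference of -0.59 (SE 0.11, adjusted p = 0.00474, limma) was the largest of complex V. The other of the 2 probe sets of Atp5g1 had 0.02 and was not called. The other genes of the same subunit, Atp5g2 and Atp5g3, were not called. Atp5g2 spread from 10.30 to 10.86 in the protein-free mice and from 10.88 to 10.97 in the Control mice, without overlap, and its difference of -0.31 was -0.05 with the Gapdh difference as a covariate.

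In complex I, Ndufb10, an accessory subunit of the membrane arm, had 9.78, 9.81, 9.93, 10.07 and 10.08 in protein-free mice. In Control mice it had 10.22, 10.22, 10.24, 10.25 and 10.36, so that all 5 protein-free mice lay lower (log2 fold change -0.33, SE 0.08, adjusted p = 0.0223, limma). Ndufs8, a core subunit that holds iron-sulfur clusters, was lower by 1 of its 4 probe sets (-0.41, SE 0.10, adjusted p = 0.0256, limma). Its brighter probe set was not called. Atp5k, a subunit of the membrane part of the ATP synthase, was lower by both of its probe sets (-0.30 and -0.24), and so was Ndufc1 of complex I by one (-0.27). The rises were those of Cox7a2l, a relative of Cox7a2, and of a dim probe set of Atp5c1. Cox7a2l had 9.80, 9.90, 10.00, 10.05 and 10.17 in protein-free and 9.50, 9.56, 9.69, 9.76 and 9.81 in Control mice, which differed by 0.32 (SE 0.08, adjusted p = 0.0343, limma). The groups overlapped by 1 mouse on each side. The bright probe set of Atp5c1, the central stalk subunit, had a log2 fold change of -0.04 where the dim one had 0.54.

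The number of called probe sets depended on single mice. It was 12 with all of them, 4 without protein-free replicate 1 or replicate 4, 7 without replicate 3, 6 without Control replicate 3 or replicate 4 and 7 without Control replicate 2. The calls over all probe sets fell in the same fits. They were 455 higher and 308 lower with all mice, 258 and 163 without protein-free replicate 1, and 280 and 170 without replicate 4. Without Control replicate 3 they were 302 and 202, and without Control replicate 4 they were 270 and 207. Atp5g1, Cox6a2, Cox7a1 and the bright probe set of Uqcrq stayed called in all 10 fits that left out 1 mouse. The calls of Ndufb10 (3 of 10), Ndufs8 (5), Atp5k and Cox7a2l (6 each) and Uqcr11 (8) were lost in the number of fits given. The red cell genes Alas2, for heme synthesis in red cell precursors, and Hba-a1, a hemoglobin chain, moved in the same mice. Both fell, 2 of 2 markers, and their mean signal was 7.98 ± 0.248 in protein-free and 9.01 ± 0.131 in Control mice (mean ± SD), a move whose part in the results was not tested. The protein-free mice lay between 7.71 and 8.22 and the Control mice between 8.86 and 9.18.

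Protein-free and CHO-free mice, which were measured in the same cohort, differed in more members than either did from Control. Both diets share the Control mice and the fit, so this difference was tested by itself. In this contrast 31 of 135 probe sets (23.0%) of 25 genes were lower in protein-free mice and 3 probe sets, all of Cox7a2l, were higher. Of all probe sets 3.67% were lower and 3.56% higher. Of the members 2 were DEPS (Cox6a2 and Cox6b2), where 2.44% of all probe sets were. The median log2 difference was -0.15, against -0.02 over all probe sets. In complex I 16 probe sets of 13 genes were lower and the median was -0.20. Complex II had 1 lower, complex III 3, complex IV 7 and complex V 4. With the brightest probe set of each gene alone, 24 of 79 genes were lower and 1 was higher.

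The 5 CHO-free mice had Uqcr11 signals of 11.92, 11.93, 11.96, 11.98 and 12.01, all above the 5 Control mice, and the protein-free mice lay below both. The difference between protein-free and CHO-free mice was -0.39 (SE 0.06, adjusted p = 4.29e-05, limma). Ndufb8, an accessory subunit of the membrane arm of complex I, showed the same order. It had 11.44, 11.48, 11.52, 11.53 and 11.53 in protein-free, 11.59 to 11.67 in Control and 11.77, 11.82, 11.82, 11.84 and 11.86 in CHO-free mice, and the 3 groups did not overlap (protein-free against CHO-free -0.32, SE 0.05, adjusted p = 0.000249, limma). Cox6b1, the subunit of complex IV that faces the intermembrane space, had 12.41, 12.51, 12.57, 12.61 and 12.65 in protein-free mice. In CHO-free mice it had 12.88, 12.90, 12.92, 12.93 and 12.95, again without overlap (-0.37, SE 0.07, adjusted p = 0.000691, limma).

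Sdhb, the iron-sulfur subunit of complex II, which also serves the citric acid cycle, had 11.66, 11.68, 11.82, 11.83 and 11.86 in protein-free mice. It had 11.96, 11.99, 12.03, 12.09 and 12.13 in CHO-free mice (-0.27, SE 0.06, adjusted p = 0.00554, limma). The 5 Control mice, from 11.92 to 12.03, overlapped with the CHO-free mice and lay above all protein-free mice. Ndufs8, by its brightest probe set, lay between 11.13 and 11.47 in protein-free and between 11.71 and 11.83 in CHO-free mice (-0.48, SE 0.08, adjusted p = 0.00049, limma). Ndufb7, an accessory subunit of complex I, was lower in protein-free mice by both of its probe sets (-0.52 and -0.51). The remaining genes lower in protein-free than in CHO-free mice ranged from -0.20 for Ndufb9 to -0.77 for Cox6a2. Among them were Ndufa3, Ndufa5, Ndufa12, Ndufs6, Ndufs7, Ndufv1 and Ndufv2 of complex I, Cox5b of complex IV and Atp5e, Atp5h and Atp5o of complex V. Of 10 fits that left out 1 mouse, the call of Cox5b was lost in 4, that of Atp5o in 5, that of Cox6b2 in 6 and that of Ndufv1 in 9.

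Markers of kidney cell types also moved between these groups. Of 8 proximal tubule markers 4 were higher in protein-free than in CHO-free mice and 0 lower, and their mean signal was 11.16 to 11.31 in protein-free and 10.95 to 11.12 in CHO-free mice. Of 4 principal cell markers of the collecting duct 3 were lower, and of 4 intercalated cell markers 2 were lower and 1 higher. Alas2 was lower (-0.98), and Hba-a1 was not called. Their part in the results was not tested.

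**Figure D2:**
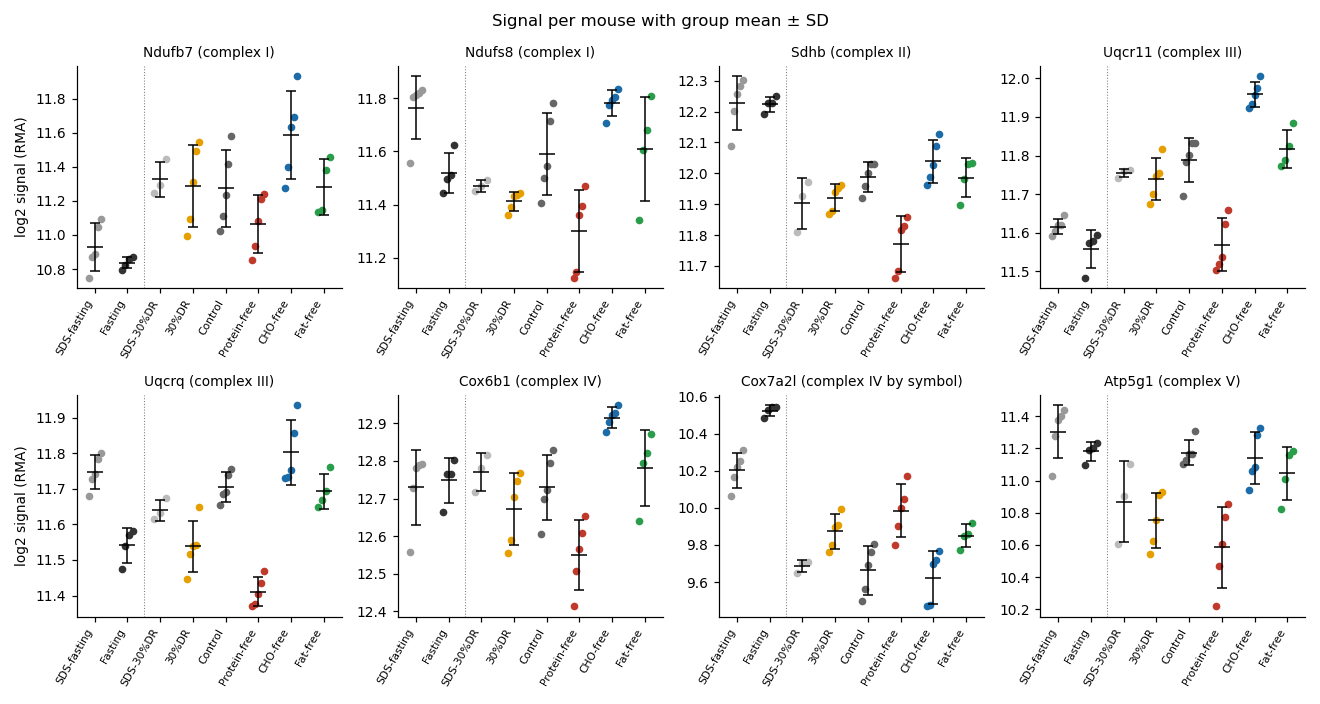
Log2 signal of 8 members in every mouse, by group, with the group mean and SD as bars and a dotted line between the separately normalized cohorts. For Uqcr11 the 5 CHO-free mice (11.92 to 12.01) lie above and the 5 protein-free mice (11.50 to 11.66) below the Control mice, and for Cox7a2l the fasted mice (10.48 to 10.54) lie above their SDS controls.

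Promoters of members that differed between protein-free and CHO-free mice are printed to show what precedes these genes. Cox7a1, which is among them, also fell in fasted and in protein-free mice against their controls. These promoters were chosen after the values were seen. The sequences are the 250 bases before the start of each gene in RefSeq (mouse build GRCm38.p6), 5′ to 3′ on the strand of the gene. Capitals mark matches, on either strand, to GCGCA and GCGC with any 1 base between them (the core motif of NRF1) or CCGGAAG (that of GABPA), factors known to act on nuclear genes of mitochondrial proteins.
Ndufb7 (chr8:83566508-83566757, plus strand): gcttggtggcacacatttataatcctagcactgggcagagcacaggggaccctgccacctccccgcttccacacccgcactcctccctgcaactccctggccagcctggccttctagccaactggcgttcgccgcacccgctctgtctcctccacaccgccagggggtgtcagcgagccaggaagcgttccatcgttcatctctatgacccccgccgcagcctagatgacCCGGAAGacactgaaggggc
Ndufs6 (chr13:73328483-73328732, minus strand): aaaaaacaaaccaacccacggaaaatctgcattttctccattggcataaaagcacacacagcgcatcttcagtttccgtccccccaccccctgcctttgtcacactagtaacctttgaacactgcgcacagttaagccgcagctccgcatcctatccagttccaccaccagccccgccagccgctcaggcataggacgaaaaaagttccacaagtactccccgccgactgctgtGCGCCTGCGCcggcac
Uqcr11 (chr10:80406822-80407071, minus strand): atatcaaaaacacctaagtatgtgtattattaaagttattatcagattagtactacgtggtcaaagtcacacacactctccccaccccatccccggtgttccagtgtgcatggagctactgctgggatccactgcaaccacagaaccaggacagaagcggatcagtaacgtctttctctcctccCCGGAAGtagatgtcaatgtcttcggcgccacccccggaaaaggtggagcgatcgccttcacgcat
Cox6b1 (chr7:30626115-30626364, minus strand): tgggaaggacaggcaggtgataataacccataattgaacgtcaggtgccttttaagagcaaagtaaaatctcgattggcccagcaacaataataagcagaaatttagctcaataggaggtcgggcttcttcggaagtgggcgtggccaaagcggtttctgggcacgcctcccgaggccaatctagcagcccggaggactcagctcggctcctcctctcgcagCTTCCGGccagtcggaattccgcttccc
Atp5e (chr2:174464102-174464351, minus strand): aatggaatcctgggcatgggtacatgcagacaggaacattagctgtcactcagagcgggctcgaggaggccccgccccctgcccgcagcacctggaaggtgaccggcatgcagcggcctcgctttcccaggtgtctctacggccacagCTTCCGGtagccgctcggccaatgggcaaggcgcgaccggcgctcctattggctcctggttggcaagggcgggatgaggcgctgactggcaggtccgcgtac
Atp5h (chr11:115419920-115420169, minus strand): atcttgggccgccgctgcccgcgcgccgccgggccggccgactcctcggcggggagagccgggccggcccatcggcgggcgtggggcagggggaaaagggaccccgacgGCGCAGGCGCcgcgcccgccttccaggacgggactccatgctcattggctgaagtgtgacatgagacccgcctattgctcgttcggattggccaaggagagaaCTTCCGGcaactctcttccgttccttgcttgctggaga
Cox7a1 (chr7:30183921-30184170, plus strand): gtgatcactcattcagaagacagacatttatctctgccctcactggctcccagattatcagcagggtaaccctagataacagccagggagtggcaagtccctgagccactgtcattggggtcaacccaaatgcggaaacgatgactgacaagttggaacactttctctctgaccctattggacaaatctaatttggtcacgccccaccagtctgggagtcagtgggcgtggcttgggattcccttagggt
Cox7a2l (chr17:83514334-83514583, minus strand): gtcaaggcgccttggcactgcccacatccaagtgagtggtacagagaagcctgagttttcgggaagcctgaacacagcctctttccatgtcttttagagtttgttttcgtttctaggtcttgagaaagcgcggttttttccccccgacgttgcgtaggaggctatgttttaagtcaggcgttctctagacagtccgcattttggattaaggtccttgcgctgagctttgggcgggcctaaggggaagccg
Ndufb7, Uqcr11, Cox6b1 and Atp5e hold the GABPA letters, Ndufs6 the NRF1 letters and Atp5h both, while the windows of Cox7a1 and Cox7a2l hold neither of them. RefSeq windows of 300 bases, 250 before to 50 after the start, were found for 63 of the 79 genes (68 windows). Of these 25.0% held the NRF1 letters, 22.1% the GABPA letters, 10.3% AAGGTCA (estrogen-related receptors) and 16.2% AAGATGG (YY1). Among all 32851 windows of the same length the shares were 4.60%, 8.86%, 4.72% and 6.34%. No member window had different motifs that overlapped. The median GC content was 57.3% in the member windows and 52.7% in all windows. Any of the 4 motifs stood in the windows of 14 of the 22 genes with a window that were lower in protein-free than in CHO-free mice, and of 23 of the 41 other members. The NRF1 letters stood in 4 of these 22 and in 12 of the 41, and the GABPA letters in 7 and in 8, so the printed genes hold them more often than the set they come from.

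On the CHO-free diet itself, against Control, 9 probe sets rose and 1 fell, and the median of the 135 (0.01) was near that of all probe sets (0.03). These groups did not overlap in the Gapdh difference, which was 0.653 to 0.956 in Control and 0.984 to 2.45 in CHO-free mice. Diet and RNA breakdown therefore cannot be told apart in this comparison. With the Gapdh difference as a covariate 0 of these 10 calls stayed. Of all probe sets 0.693% rose and 0.600% fell with it, where 5.51% and 4.85% did without it. The rises lay in complex I (Ndufb8, Ndufa5, Ndufs7 and Ndufv2), complex III (Uqcr11 and a dim probe set of Uqcrq), complex IV (a dim probe set of Cox5b) and complex V (Atp5o and the dim probe set of Atp5c1). Ndufv2, a core subunit of the NADH-oxidizing module, had 12.06, 12.09, 12.12, 12.12 and 12.17 in CHO-free mice and 11.71, 11.74, 11.81, 11.87 and 11.91 in Control mice. The groups did not overlap (log2 fold change 0.31, SE 0.07, adjusted p = 0.0095, limma). The other probe set of Ndufv2 (-0.11) and that of Atp5o (-0.15) had estimates below 0 and were not called. Ndufs7, a core subunit next to the ubiquinone site, spread from 11.10 to 11.85 against 10.71 to 11.18, with 0.50 (SE 0.12, adjusted p = 0.00978, limma). The probe set that fell was a dim one of Ndufs4, from 6.52 to 7.36 in Control to 5.42 to 6.39 in CHO-free mice (-0.79, SE 0.20, adjusted p = 0.0104, limma). The other 2 of this gene were not called. The only DEPS were this probe set and the dim one of Atp5c1, where 3.60% of all probe sets were DEPS. Of the 10 fits that left out 1 mouse, the call of Uqcr11 was lost in 9 and that of Atp5o in 6. Markers of several cell types moved in the same mice. The mean signal of 4 principal cell markers (2 rose) was 7.76 to 7.97 in CHO-free and 7.36 to 7.68 in Control mice, and that of 9 leukocyte markers (3 fell) was 5.17 to 5.40 against 5.45 to 5.99, both without overlap. The mean of 5 thick ascending limb markers (2 fell) was 9.94 to 10.72 against 10.67 to 10.91, that of 4 intercalated cell markers (1 rose) 8.19 to 8.32 against 7.66 to 8.21, and that of 8 proximal tubule markers (3 fell and 1 rose) 10.95 to 11.12 against 10.91 to 11.25, with overlap. Their part in these results was not tested. The count of calls was 23 without CHO-free replicate 2 and 1 without replicates 3 and 4 together, the mice with the highest Gapdh differences. The calls over all 45141 probe sets moved as well. They were 2489 higher and 2191 lower with all mice, and 3508 and 3318 without replicate 2. Without replicates 3 and 4 together they were 630 and 463.

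Protein-free mice were also set against fat-free mice. Only Cox7a1 (-0.51, SE 0.11, adjusted p = 0.0338, limma) and Uqcrq (-0.28, SE 0.06, adjusted p = 0.0343, limma) were called, both lower in protein-free mice, where 0.144% of all probe sets were lower and 0.199% higher. Neither was a DEPS, where 0.241% of all probe sets were. Uqcrq was called in 0 of the 9 fits that left out 1 mouse, and Cox7a1 in 2. The median difference of the 135 was -0.14, with 118 of 135 below 0. Between CHO-free and fat-free mice Ndufb8, Ndufs7 and a dim probe set of Cox5b were higher in CHO-free mice, where 2.81% of all probe sets were called and 1.25% were DEPS. The members held 0 DEPS. These calls were lost in 8, 6 and 6 of 9 fits that left out 1 mouse.

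Fasting moved members both ways, in shares near those of all probe sets, of which 9.54% fell and 10.1% rose. It had the largest called changes of the 5 comparisons. It called 6 probe sets lower and 6 higher in complex I, 1 higher in complex II, 2 lower in complex III, 1 lower and 5 higher in complex IV, and 3 lower and 1 higher in complex V. Of the 135, 6 were DEPS, where 5.31% of all probe sets were. Of these 3 rose, Cox6b2, Cox8b and the dim probe set of Atp5c1, and 3 fell, Cox7a1 and dim probe sets of Ndufa10 and Ndufs4. In complex V 22 of 24 estimates were below 0, with a median of -0.08. Atp5e, the epsilon subunit of the central stalk, had 11.29, 11.39, 11.41 and 11.47 in fasted mice and 11.64, 11.64, 11.70, 11.78 and 11.80 in their SDS controls. The groups did not overlap (-0.32, SE 0.06, adjusted p = 0.00345, limma). Atp5k fell by both probe sets. The less bright of them lay between 11.60 and 11.65 in the fasted mice and between 11.89 and 12.07 in the SDS controls (-0.33, SE 0.06, adjusted p = 0.002, limma).

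In complex III of the fasted mice Uqcrq had 11.47, 11.54, 11.57 and 11.58 against 11.68, 11.73, 11.74, 11.78 and 11.80, again without overlap (-0.21, SE 0.05, adjusted p = 0.0194, limma). This was the only 1 called of 4 probe sets of Uqcrq, whose estimates ran from -0.21 to 0.24. Of 3 probe sets of Uqcr10, 1 fell too (-0.24). Both calls were lost without Fasting replicate 4. Ndufa7 rose by 4 probe sets (0.18 to 0.29) and Cox7a2l by 3 (0.27 to 0.37). Cox7a2l, by its brightest probe set, had 10.48, 10.53, 10.54 and 10.54 in fasted mice and 10.06, 10.16, 10.22, 10.25 and 10.31 in the SDS controls, all 4 fasted mice being higher. Ndufa6 and Ndufb3, accessory subunits of complex I, rose by 0.20 and 0.25. Dim and bright probe sets of a gene differed. For Atp5c1 the dim probe set had 6.51, 7.18, 7.27 and 7.29 against 6.13 to 6.41 (0.79, SE 0.15, adjusted p = 0.00273, limma), while the bright one had 12.55 to 12.59 in fasted mice, inside the 12.45 to 12.66 of the SDS controls. Sdha, the flavoprotein of complex II, likewise rose only by a dim probe set (0.42), and its brightest had 0.01. Alas2 and Hba-a1 also fell after fasting, from a mean signal of 9.22 ± 0.358 to 8.34 ± 0.168 (mean ± SD), and of 9 leukocyte markers 5 fell, moves whose part was not tested. Of 8 proximal tubule markers 3 fell and 1 rose.

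After 2 weeks of 30%DR 1 probe set was called. It was one of 3 of Uqcr10, a small subunit of complex III, with 9.23, 9.25, 9.34, 9.40 and 9.53 in restricted mice and 9.69, 9.85 and 9.91 in their SDS controls. The groups did not overlap (-0.47, SE 0.12, adjusted p = 0.0455, limma), and the other 2 probe sets were not called. The call was lost in 7 of the 8 fits that left out 1 mouse and held only without 30%DR replicate 3. No member was a DEPS, where 0.919% of all probe sets were. With 3 control mice the median standard error over the members was 0.108, against 0.061 after fasting.

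Tissue isoforms of complex IV were among the members that moved most, in both directions. The 18 genes measured of subunits with several isoforms also include Atp5g1, Atp5g2 and Atp5g3 of complex V and Ndufa4 and Ndufa4l2. Of the 18, 3 rose and 1 fell after fasting, where 10.1% of all probe sets rose and 9.54% fell. On the protein-free diet 1 rose and 3 fell, 1 of these being Atp5g1, where 1.01% of all rose and 0.682% fell, and limma called 0 after 30%DR, the CHO-free or the fat-free diet (2, 3 and 1 at an unadjusted p under 0.05). Cox7a1, the heart and muscle form of subunit 7a, had 6.78, 6.78, 7.15 and 7.36 in fasted mice and 7.73, 7.74, 7.77, 7.80 and 7.89 in their SDS controls. All fasted mice were lower, with a difference of -0.77 on the log2 scale (SE 0.11, adjusted p = 0.000665, limma). In protein-free mice it had 7.07, 7.14, 7.17, 7.21 and 7.70 against 7.74, 7.78, 7.79, 7.83 and 7.85 in Control mice. Here too the groups did not overlap, with -0.54 (SE 0.10, adjusted p = 0.00473, limma), although protein-free replicate 3 lay near the Control mice. After 30%DR it had 7.27 to 7.77 against 7.74 to 7.99, and this difference of -0.30 was not called. Cox7a2, the form found in most tissues, was called in 0 of the 5 diet comparisons.

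Cox6a2, the heart and muscle form of subunit 6a, was dim. It had 4.30, 4.34, 4.53, 4.68 and 4.77 in protein-free mice and 4.80, 5.07, 5.19, 5.31 and 5.38 in Control mice (-0.63, SE 0.12, adjusted p = 0.00474, limma). Against CHO-free mice, at 4.86, 5.30, 5.36, 5.37 and 5.58, the difference was -0.77 (SE 0.12, adjusted p = 0.000157, limma). The protein-free mice overlapped with neither group. Cox6b2, the testis form of subunit 6b, had 6.51, 6.52, 6.56 and 6.91 in fasted mice and 5.14, 5.14, 5.34, 5.49 and 5.57 in their SDS controls. This was the member with the smallest adjusted p after fasting (1.29, SE 0.11, adjusted p = 1.9e-05, limma), and the groups lay far apart. Its widespread form Cox6b1 was not called there.

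Cox8b, an isoform known from muscle and brown fat, was the most variable member. It had 3.76, 5.93, 6.65 and 7.30 in fasted mice and 3.61, 3.87, 4.03, 4.55 and 4.64 in the SDS controls, with overlap (1.77, SE 0.56, adjusted p = 0.0464, limma). The call was lost in 8 of 9 fits that left out 1 mouse and held without Fasting replicate 4. After 30%DR it had 3.45, 4.65, 4.88, 5.62 and 6.22 against 6.98, 7.75 and 7.81, a difference of -2.55 on the log2 scale (SE 0.68) that was not called (adjusted p = 0.0568, limma), although the groups did not overlap. In protein-free mice it ran from 3.24 to 7.93. Fat-cell markers varied among the same mice. The mean signal of Adig, Adipoq and Fabp4, all of adipocytes, was 5.94 to 8.97 in fasted and 6.41 to 7.08 in SDS-fasting mice, 6.63 to 7.22 in 30%DR and 7.37 to 8.43 in SDS-30%DR mice, and 5.18 to 7.84 in protein-free mice. Fasting replicate 4, the lowest for Cox8b, was also lowest for these markers (5.94), and Fasting replicate 1 was highest for both. Of the 3 markers Adig alone was called, higher after fasting (1.16) and lower after 30%DR (-1.24). Ucp1, the uncoupling protein of brown fat, was 6.17, 6.97 and 7.34 in the SDS-30%DR mice and 3.34 to 5.57 in the 30%DR mice. Protein-free replicate 3 had the highest Cox8b (7.93), Ucp1 (9.58) and Fabp4 (11.56) of its group. With the mean of the fat-cell markers as a covariate the change of Cox8b after fasting was 0.63 (adjusted p = 0.0212, limma) in place of 1.77, and that of Cox7a1 was -0.89 in place of -0.77.

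**Figure D3:**
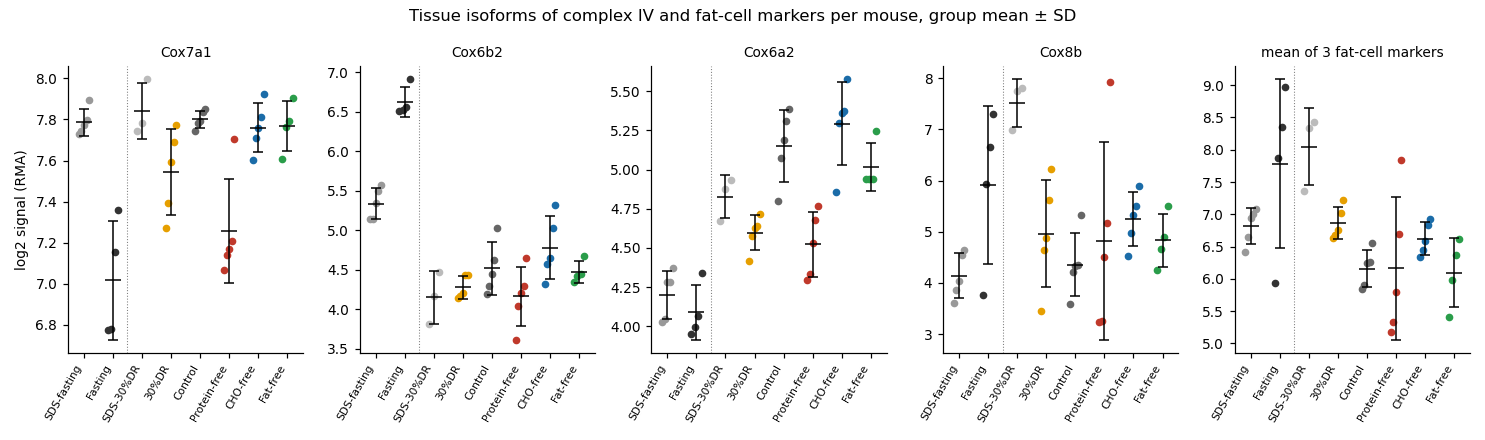
Log2 signal of 4 tissue isoforms of complex IV and mean log2 signal of 3 fat-cell markers (Adig, Adipoq and Fabp4) in every mouse, by group, with the group mean and SD as bars. The protein-free mouse at 7.93 for Cox8b also has the highest fat-cell marker mean of its group (7.84), and for Cox7a1 and Cox6b2 the fasted mice do not overlap with their controls.

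Of 19 core subunits measured by their brightest probe set, 1 fell after fasting (Ndufs8, a call lost in 7 of 9 fits that left out 1 mouse), where 9.54% of all probe sets fell. With the same test 0 were called on the protein-free diet, after 30%DR or on the fat-free diet, and 2 rose on the CHO-free diet (Ndufs7 and Ndufv2), where 5.51% of all probe sets rose. At an unadjusted p under 0.05 limma had 3 core subunits after fasting, 5 on the protein-free diet, 8 on the CHO-free diet, and 0 after 30%DR or on the fat-free diet. Of all 45141 probe sets 13653 were under 0.05 after fasting, 5815 on the protein-free and 11027 on the CHO-free diet. There were 5600 after 30%DR and 2089 on the fat-free diet. On the protein-free diet 18 of 19 estimates were below 0, with a median of -0.11. Between protein-free and CHO-free mice 6 of 19 were lower, Ndufs7, Ndufs8, Ndufv1, Ndufv2, Sdhb and Cox5b, where 3.67% of all probe sets and 23.0% of the member probe sets were. Atp5b, the catalytic beta subunit of the ATP synthase, had 12.04 to 12.38 in protein-free, 11.75 to 12.39 in CHO-free and 12.25 to 12.52 in Control mice and was called in neither comparison. Uqcrc1, Uqcrc2 and Uqcrfs1 of complex III and Cox4i1 and Cox5a of complex IV were called in 0 of the 5 diet comparisons.

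The shift of the members was then repeated with the Gapdh difference of each array as a covariate. In the other cohort 31 member probe sets fell and 2 rose with this difference, where 5.84% of all probe sets fell and 4.15% rose, and the median slope over the members was -0.07. The steepest falls per unit were those of Ndufc2 (-0.56), Atp5g2 (-0.49) and Ndufs4 by its brightest probe set (-0.43). In the fasting cohort limma called 0 members and 0.00% of all probe sets for their slope (6 members at an unadjusted p under 0.05). With the covariate 4 of the 12 protein-free calls stayed, Atp5g1 (-0.41), Cox6a2 (-0.65), Cox7a1 (-0.53) and Uqcrq (-0.30), and 0 rose, where 0.465% of all probe sets fell and 0.658% rose. The median of the 135 was -0.10, with 109 of 135 below 0. Of the 10 CHO-free calls 0 stayed, and 1 probe set, of Atp5g1, was called higher there (0.32), where 0.693% of all rose and 0.600% fell, and the median of the members was 0.09.

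The contrast of protein-free with CHO-free mice had 36 lower and 2 higher with the covariate, and 25 of the 34 earlier calls were among them. Of all probe sets 2.77% were lower and 2.64% higher. The median was -0.20 and 122 of 135 were below 0. After fasting 24 of 25 calls stayed, the exception being Cox8b, where 9.47% of all probe sets rose and 9.21% fell. The single call after 30%DR stayed, where 0.773% rose and 0.795% fell. Protein-free replicates 2 and 5 had Gapdh differences of 0.818 and 0.745, inside the Control range of 0.653 to 0.956. Their medians over the 135 probe sets, relative to the Control mean, were -0.13 and -0.10. The Control mice lay between -0.03 and 0.02, around a mean that includes them. Protein-free replicates 1, 3 and 4 had larger shifts, of -0.22, -0.15 and -0.16, at Gapdh differences of 2.19, 1.41 and 1.56. A link between shift and Gapdh difference within the protein-free group was not tested.

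**Figure D4:**
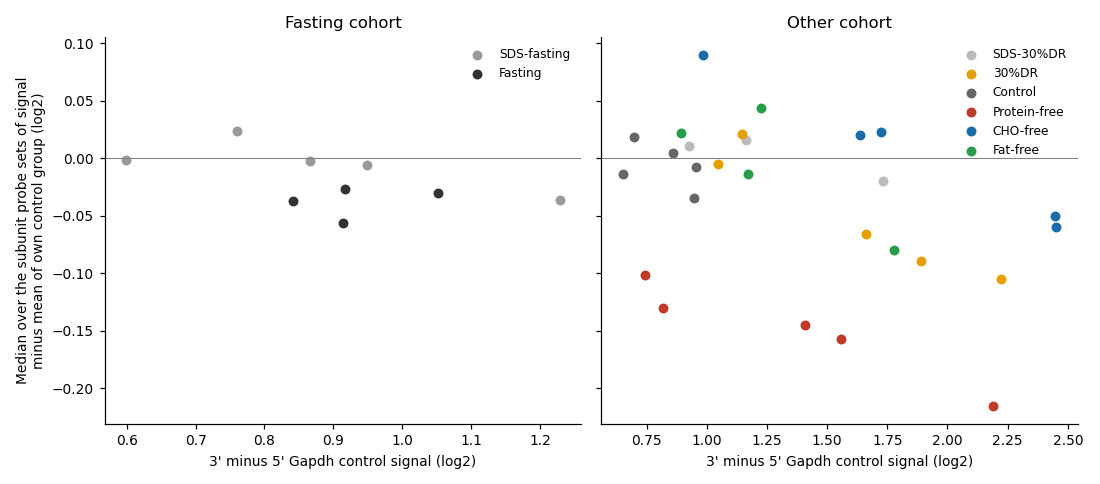
Median over the 135 probe sets of each mouse's log2 signal minus the mean of its own control group (vertical axis) against the Gapdh difference (horizontal axis, log2), in the fasting cohort (left) and the other cohort (right). The 5 protein-free mice lie between -0.22 and -0.10 and below all Control mice.

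**Figure D5:**
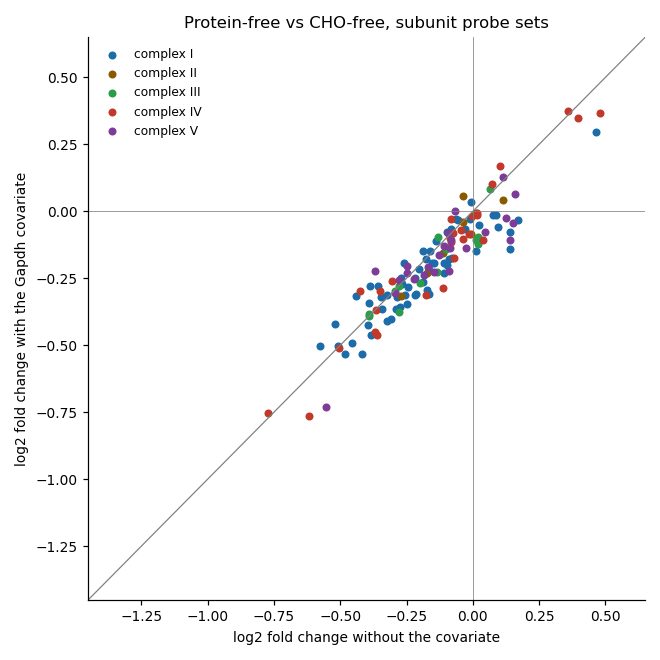
Log2 difference between protein-free and CHO-free mice of each of the 135 probe sets without (horizontal axis) and with (vertical axis) the Gapdh covariate, coloured by complex, with the line of equality. With the covariate 122 of the 135 lie below 0, where 106 did without it.

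Other genes of the pathway were taken from lists, by the brightest probe set of each gene. Of 45 assembly factors, which build the complexes but are not part of them, 11 fell and 1 rose after fasting, where 9.54% of all probe sets fell and 10.1% rose. The largest falls were those of Cox15 (-0.69) and Tmem126b (-0.65). On the protein-free diet 2 of 45 fell, Sdhaf1 (-0.40), which inserts iron-sulfur clusters into complex II, and Uqcc2 (-0.30), and 42 of 45 estimates were below 0. Of all probe sets 0.682% fell on this diet. Between protein-free and CHO-free mice, where 3.67% of all probe sets were lower and 3.56% higher, 9 assembly factors were lower and 0 higher, with Sdhaf1 at -0.58 (SE 0.08, adjusted p = 6.98e-05, limma). Of 11 citric acid cycle enzymes 4 were lower in this contrast, among them citrate synthase, Cs, with 10.32 to 10.62 in protein-free and 10.83 to 11.11 in CHO-free mice (-0.51, SE 0.12, adjusted p = 0.00761, limma). Of 17 regulators of mitochondrial gene expression 3 were lower there, Perm1 (-0.66), Pprc1 (-0.60) and Esrra (-0.35), and Gabpa was higher (0.58). Cyc1, the cytochrome c1 of complex III, which the symbol rule does not take, was lower by 0.28 on the log2 scale. After fasting cytochrome c itself, Cycs, fell by 0.35.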

How the data were processed

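Kidney RNA of 36 mice was hybridized to arrays of 1 Affymetrix type (HT MG-430 PM). The authors summarised the probes to log2 signals by RMA (version not given in the sources used here) through the arrayanalysis.org pipeline, separately for the fasting cohort (9 arrays) and the other cohort (27 arrays), and left out arrays they judged outliers. The deposited log2 values were used as they are. No depth exists for arrays, and the number of mice limits the precision. Of 45141 probe sets 28898 had 1 gene symbol in the platform annotation, 551 had several and 15692 had none here. No detection call was used: dim marks a low signal, and whether it was above background was not tested.

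Each cohort was fitted in limma 3.58.1 (R 4.3.3) with a mean per group, eBayes and Benjamini-Hochberg adjustment over all probe sets. A call needed a false discovery rate under 5%, and a DEPS also a fold change of at least 1.5. Gapdh differences were tested by an exact permutation test. Values were given for members with a DEPS, for the 2 largest called changes per comparison and complex, and for core subunits and isoforms. Other members and genes named were chosen after their values were seen. Members and lists were chosen with earlier results of these data known. Samples were grouped by their labels, and replicates are separate mice, numbered in accession order. Results were repeated with other covariates, priors, models, scalings and filters, and without each mouse in turn. The fits were tested on simulated data with known changes.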

Additional observations from a re-analysis of the deposited data

Results flagged for a closer look

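Of 364 groups of 4 or 5 mice examined, 22 held a mouse set apart by a gap that was wide for the range of its group. About 1 in 20 would be flagged by chance, and the gap itself could be small. SDS-fasting replicate 4 had the highest Gapdh difference of its cohort (1.23), and a link to its flags was not tested. In this mouse there were 6 of them: Cox6b1 at 12.56 (nearest other mouse 12.73), Cox8a at 11.66 (11.88), Ndufa4 at 12.64 (12.5), Ndufs3 at 10.87 (11.07), Ndufs8 at 11.56 (11.81) and Ndufv2 at 12.0 (11.91). In SDS-fasting replicate 1 Ndufb10 had 10.55 (10.32) and Ndufb8 12.0 (12.06). Among fasted mice Cox6b2 had 6.91 (6.56) and Ndufb8 12.1 (12.06) in replicate 1, a dim probe set of Atp5c1 6.51 (7.18) and Ndufa4l2 3.42 (3.25) in replicate 3, and Uqcrfs1 11.34 (11.43) in replicate 4. Among Control mice Ndufb10 had 10.36 (10.25) in replicate 3, a dim probe set of Uqcrq 3.36 (3.59) in replicate 4 and Atp5k 11.9 (11.61) in replicate 5. Among protein-free mice Sdhc had 10.31 (10.38) in replicate 1, Cox7a1 7.7 (7.21) and a dim probe set of Cox5b 4.22 (3.93) in replicate 3, and Cox7a2 12.76 (12.55) in replicate 4. Among fat-free mice Sdha had 11.49 (11.69) in replicate 1 and Cox6a2 5.25 (4.94) in replicate 3.

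Effects that differed between diets by their own limma contrast numbered 34 for protein-free against CHO-free mice, 2 for protein-free against fat-free mice and 3 for CHO-free against fat-free mice. Between protein-free and CHO-free mice the log2 differences were -0.48 and -0.42 for 2 probe sets of Ndufs8, -0.58 for Ndufs7, -0.36 for Ndufv1, -0.39 for Ndufv2, -0.52 for Ndufb7, -0.32 for Ndufb8 and -0.46 for Ndufb10 in complex I. They were -0.27 for Sdhb in complex II, and -0.39 for Uqcr11, -0.39 for Uqcrq and -0.28 for its dim probe set in complex III. In complex IV they were -0.77 for Cox6a2, -0.62 for Cox6b2, -0.37 for Cox6b1, -0.31 for Cox5b, -0.50 for Cox7a1 and 0.36 for Cox7a2l, and in complex V -0.56 for Atp5g1, -0.29 for Atp5e and -0.25 for Atp5o. Between protein-free and fat-free mice they were -0.51 for Cox7a1 and -0.28 for Uqcrq. Between CHO-free and fat-free mice they were 0.43 for a dim probe set of Cox5b, 0.21 for Ndufb8 and 0.49 for Ndufs7. Each diet was compared with the same Control mice.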

How the results depend on the processing

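No call of a named member changed direction under the alternatives. Atp5g1, which was not called against Control in CHO-free mice (-0.04), had 0.32 with the Gapdh covariate and was called. Of the 150 counts of calls recomputed without leaving out a mouse in turn, 35 moved by more than 1.5 times, as did 11 of 75 medians by more than the spread between mice. The cause was not tested. With the Gapdh covariate the median log2 fold change was -0.017 for 30%DR, -0.103 for protein-free, 0.088 for CHO-free and 0.036 for fat-free mice, with 4 calls and 1 DEPS in protein-free mice, 1 call and 0 DEPS in CHO-free mice, and 1 call between CHO-free and fat-free mice. In models of the 2 groups alone 30%DR had 1 DEPS, protein-free 4 calls, CHO-free 5 calls, protein-free against CHO-free 20 calls and 1 DEPS, and both contrasts with fat-free mice 0 calls. Over all probe sets these models gave protein-free 370 higher and 244 lower, CHO-free 1191 and 1180, and protein-free against CHO-free 966 and 1072. The fit of all groups had 455 and 308, 2489 and 2191, and 1605 and 1657 in turn. Against fat-free mice these models gave protein-free 101 and 64, and CHO-free 189 and 141. With 1 probe set per gene fasting had 13 calls and 3 DEPS, 30%DR 1 DEPS and a median of -0.036, and CHO-free 6 calls and 0 DEPS, where fewer probe sets were tested. Of the 17097 tested, 1978 rose and 2295 fell after fasting, and 1081 rose and 1193 fell on the CHO-free diet. With the median of each array subtracted the median was -0.059 after fasting, -0.167 in protein-free and -0.037 in CHO-free mice, with 1 DEPS in the latter and 1 call between CHO-free and fat-free mice. Quantile normalization gave CHO-free mice a median of 0.028 and protein-free against fat-free 1 call. Over probe sets above the median signal 30%DR had 2 calls and 1 DEPS, and protein-free against fat-free 1 call. A trended and robust prior left 1 call in each contrast with fat-free mice. Array weights gave 2 calls for 30%DR, 1 DEPS for protein-free against Control and against CHO-free mice, and 4 calls for protein-free against fat-free mice.

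Alternatives chosen after seeing the data were the slope on the Gapdh difference, the fat-cell marker covariate, which left 0 calls for 30%DR and for CHO-free against fat-free mice, and the removal of CHO-free replicates 3 and 4. Without these mice CHO-free had 1 call, 0 DEPS and a median of 0.039, protein-free against CHO-free 20 calls and a median of -0.206, and CHO-free against fat-free 0 calls. Over all probe sets CHO-free then had 630 higher and 463 lower, against 2489 and 2191 with all mice.

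Leaving out each mouse in turn gave 18 to 25 calls, 4 to 6 DEPS and medians of -0.051 to -0.028 after fasting, and 0 to 1 calls, 0 to 1 DEPS and medians of -0.077 to -0.044 after 30%DR. It gave 4 to 12 calls, 0 to 3 DEPS and medians of -0.163 to -0.136 in protein-free mice, 7 to 23 calls, 1 to 3 DEPS and medians of -0.015 to 0.026 in CHO-free mice, and 0 calls and medians of -0.025 to 0.010 in fat-free mice. The CHO-free median was below 0 without CHO-free replicate 2, and the fat-free median above 0 without Fat-free replicate 1. Protein-free against CHO-free mice had 24 to 33 calls, 1 to 4 DEPS and medians of -0.175 to -0.111, protein-free against fat-free 0 to 1 calls, 0 to 1 DEPS and medians of -0.166 to -0.122, and CHO-free against fat-free 0 to 8 calls, 0 to 1 DEPS and medians of 0.006 to 0.042, with 8 calls without CHO-free replicate 2. The calls over all probe sets moved in these fits as well. For CHO-free against fat-free mice they were 677 higher and 592 lower with all mice, and 1492 and 1795 without CHO-free replicate 2. For protein-free against CHO-free mice they were 1605 and 1657 with all mice, and 2322 and 2192 without CHO-free replicate 2. Without Protein-free replicate 5 they were 994 and 1060. No paired analysis was possible because replicate numbers were given only in accession order.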
